A study of Homo sapiens with 4 samples.

Results

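The 34 genes examined here encode the enzymes that build cholesterol and fatty acids and the proteins that switch those enzymes on. They were chosen by name, 17 for the sterol branch, 12 for the fatty acid branch and 5 for the regulators of the sterol regulatory element-binding proteins (SREBPs), out of 61541 gene identifiers in the deposited table. All 34 were found in the table once each and all 34 passed the filter on low counts, which left 16863 genes for testing.

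RNA was sequenced from MHCC97H cells, an established human hepatocellular carcinoma (HCC) line, in 4 libraries. The shCon group (2 libraries) carried a control short hairpin RNA, and the shUBXN1 group (2 libraries) carried a hairpin against UBXN1, a ubiquitin-binding cofactor of the ATPase VCP. The groups shared the cell line and the labels give no treatment or time point. The comparison asks how the transcriptome of these cells differs when UBXN1 is knocked down. The labels do not say that the libraries of a group came from separate cultures, so p-values measure the spread between these libraries, which may be technical. The hairpin used for the sequenced cells was not named, and effects of a single hairpin on other transcripts cannot be told apart from those of the knockdown.

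Cholesterol and fatty acids are both built from cytosolic acetyl-CoA. The sterol branch runs through mevalonate and isoprenoid diphosphates to squalene, which is closed into lanosterol and then trimmed and reduced to cholesterol, while the fatty acid branch carboxylates acetyl-CoA to malonyl-CoA, extends the chain on fatty acid synthase and then elongates and desaturates it. SREBPs are transcription factors held in the endoplasmic reticulum by SCAP and the INSIG proteins when sterols are abundant and are carried to the Golgi and cut free when sterols are scarce. In the liver, SREBF2 is best known for driving sterol genes and SREBF1 for driving fatty acid genes, and liver tumors often raise lipid synthesis.

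Values below are CPM (read counts scaled to the effective library size), or TPM where genes are compared with each other, which also takes gene length into account. A gene was called at a Benjamini-Hochberg adjusted p under 0.05 in edgeR's quasi-likelihood model over all genes tested. UBXN1 itself was at 67.1 and 77.3 CPM in shCon and 16.8 and 18.5 CPM in shUBXN1, so that 24.5% of its control level was left. The libraries held 23373700 to 27380508 counts each. Counts on the mitochondrial genome made up 5.28% and 5.59% in shCon and 7.43% and 8.27% in shUBXN1, and the part of this difference in the results below was not tested.

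Of 13 hepatocyte markers, 12 were tested and all but GPC3 (0 counts in every library) had counts in each library, with summed levels of 5443 and 5492 TPM in shCon and 4656 and 5071 TPM in shUBXN1. KRT8 was the most abundant, at 2329 to 3467 CPM. Of the 12, 2 were called higher in shUBXN1, SERPINA1 (log2 fold change 0.40) and KRT18 (0.31), and 8 lower. Among the latter, albumin (ALB) fell from 18.0 and 17.2 CPM to 4.20 and 4.78 CPM. Over all genes tested, 28.0% were called higher and 28.2% lower, and among those with a mean of at least 5 CPM 28.7% and 36.5%. Of 12 markers of other cell types, 5 were too low to test, the T cell gene CD3E and the adipocyte gene ADIPOQ had 0 counts in every library, and the summed level of the list was 111 and 114 TPM in shCon and 109 and 98.1 TPM in shUBXN1, with 2 called higher (PECAM1, COL1A1) and 2 lower (CD68, DCN). The part of the hepatocyte marker change in the lipid genes was not tested, and in bulk RNA fewer cells of a type cannot be told apart from less RNA per cell.

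The sterol branch was mostly higher in shUBXN1, with 10 of 17 genes rising, 0 falling and 7 not past the threshold, although PMVK was called lower after removal of GC trends (-0.27) and HMGCS1 without the second shUBXN1 library (-0.23). The fatty acid branch was split, with 3 of 12 genes rising and 4 falling. Among the 5 SREBP regulators, SREBF1, SCAP and INSIG1 fell, INSIG2 rose and SREBF2 was at 99.7% of control (edgeR adjusted p = 0.96). SREBF2 was called lower after removal of GC trends (-0.21). Over all genes tested, 28.0% were called higher and 28.2% lower, 56.2% in all, and among the 11557 genes with a mean of at least 5 CPM the shares were 28.7%, 36.5% and 65.2%. Of the 34 members, 14 were called higher and 7 lower. Against that background, the sterol branch had a larger share of rises and a smaller share of falls than the table as a whole. The fatty acid branch was close to it in both directions. An absolute log2 fold change above 0.5 together with the call was found in 10 of 34 members and in 36.5% of all genes tested.

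The median log2 fold change was 0.395 in the sterol branch, -0.035 in the fatty acid branch and -0.32 in the regulators, beside 0.016 over all genes tested. The sterol genes ran from -0.10 to 2.16, the fatty acid genes from -0.84 to 0.69 and the regulators from -1.07 to 0.34. The fold change of 2 and unadjusted p under 0.05 named in the study's methods were applied here to the edgeR fit, whereas the study used limma. By this rule TM7SF2 was the 1 member called higher (11.8% of all genes tested were, and 5.80% of those with at least 5 CPM) and SREBF1 the 1 called lower (6.09% and 4.97%). SREBF1 was not called lower by it under total count scaling (-0.98) or by limma on log2(TPM + 1). In edgeR the rule gave 1997 genes higher and 1027 lower, and 1714 and 1365 once the trend of counts on gene GC content was taken out of each library. The groups did not overlap in 26 of 34 members, against 78.0% of all genes tested and 83.0% of those with at least 5 CPM, so non-overlap by itself does not mark these genes.

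**Figure D1:**
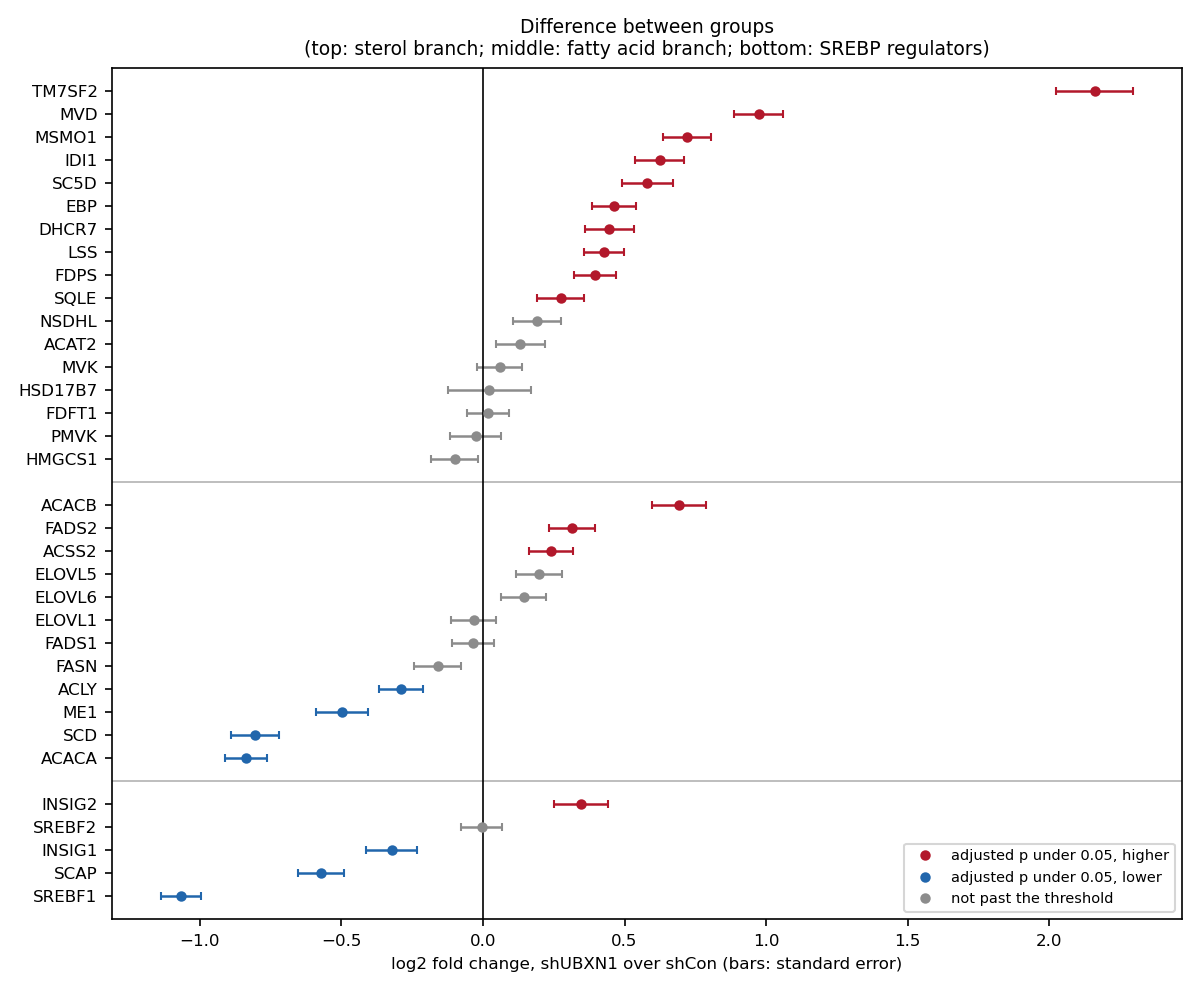
Log2 fold change of each of the 34 genes in shUBXN1 over shCon, with the standard error as a bar, sorted within the sterol branch, the fatty acid branch and the SREBP regulators. In the sterol branch 10 genes are red (higher), none is blue, and TM7SF2 stands far to the right at 2.16, whereas the fatty acid branch has 3 red and 4 blue genes and SREBF1 is lowest at -1.07.

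Levels per length placed FDPS first in both groups, at 383 ± 4.20 TPM (SD, n = 2) in shCon and 525 ± 16.7 TPM in shUBXN1. SCD was next in shCon at 293 ± 12.3 TPM, close to FDFT1 at 270.4 ± 4.03 and FASN at 269 ± 5.73 TPM, whose difference lay within their spread. In shUBXN1 SCD dropped to position 6 at 174 ± 6.64 TPM, and FADS2 moved from position 6 to position 3 at 250.5 ± 7.80 TPM, level with FASN at 250.3 ± 1.2 TPM. ACACB stood last in both groups, at 3.90 ± 0.0333 and 6.56 ± 0.460 TPM. TM7SF2 stood at position 33 in shCon with 5.65 ± 0.46 TPM and at position 29 in shUBXN1 with 26.3 ± 0.728 TPM.

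The summed level of the 17 sterol genes was 1659 and 1636 TPM in shCon and 2139 and 2187 TPM in shUBXN1. For the 12 fatty acid genes the sums were 1520 and 1480 TPM in shCon and 1360 and 1401 TPM in shUBXN1, and for the 5 regulators 198 and 192 against 152 and 151 TPM. All 34 genes together added up to 3378 and 3308 TPM in shCon and 3651 and 3739 TPM in shUBXN1. In TPM, the sterol and fatty acid sums were thus near each other in control cells and lay further apart after knockdown. This depended on the scale. Without the length correction, sterol sums moved from 1581 and 1598 CPM (shCon) to 1901 and 2107 CPM (shUBXN1). Fatty acid sums moved from 3694 and 3690 to 2975 and 3280 CPM, so in CPM the branches began far apart and drew closer. For all 34 genes the CPM sums overlapped between groups, at 5679 and 5691 (shCon) against 5170 and 5698 (shUBXN1). FDPS alone was at 380 and 386 TPM in shCon and 536 and 513 TPM in shUBXN1.

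**Figure D2:**
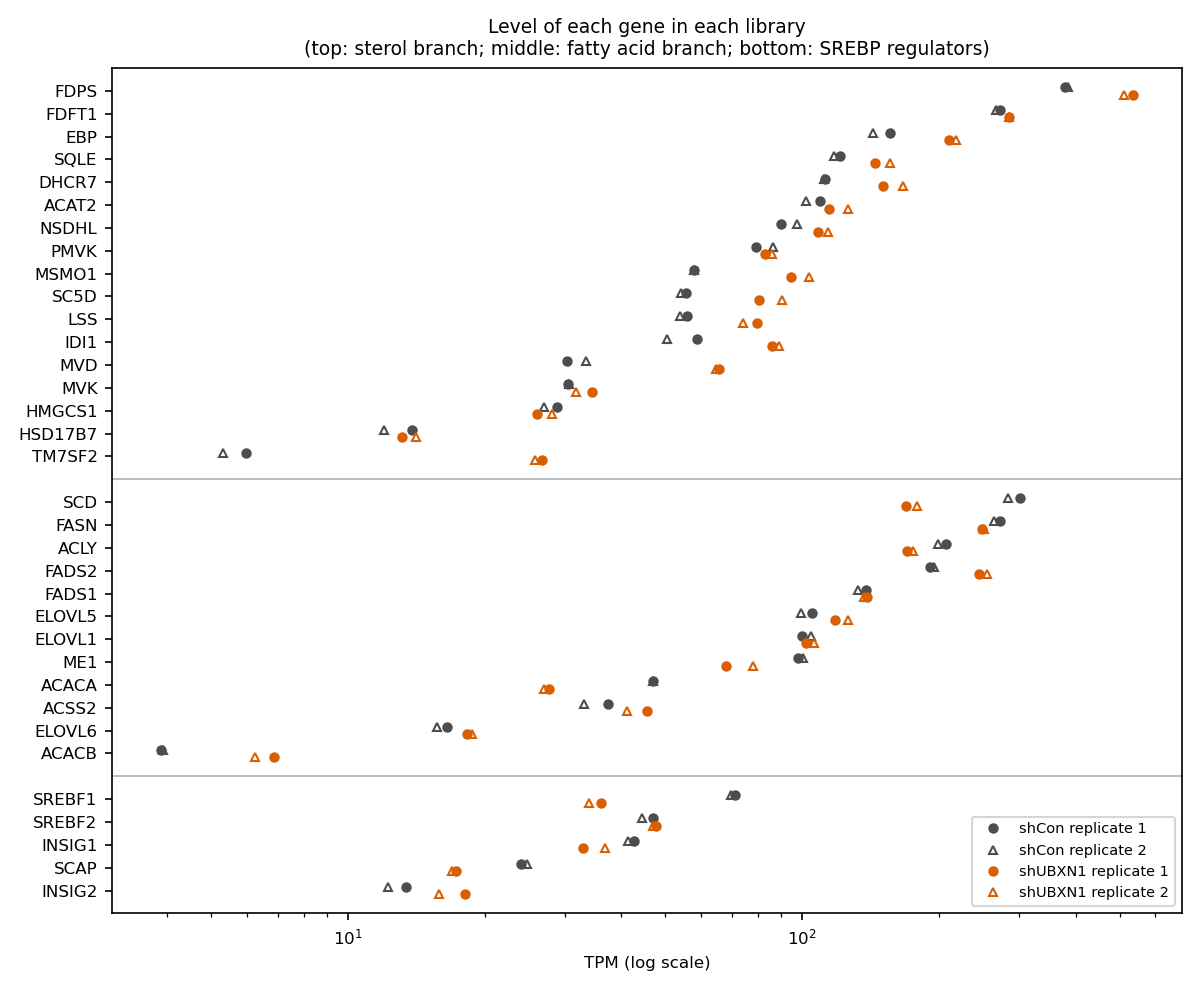
Level of each gene in TPM on a log axis, with a filled circle for replicate 1 and an open triangle for replicate 2 of shCon (grey) and shUBXN1 (orange). TM7SF2 shows the widest gap between groups, from 5.65 to 26.3 TPM on average, while SCD, ACACA, ME1 and SREBF1 have their orange points to the left of the grey ones.

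The promoters of these genes were read to set the sequences beside the values. RefSeq windows from 250 bases before to 50 bases after the start site were at hand for 30 of the 34 genes, the others being ACAT2, FDFT1, SQLE and FASN. On both strands, 4 motifs were searched, none of which contains another, namely the sterol regulatory element TCACNCCAC, the E-box CACGTG, the CCAAT box CCAAT, which binds NF-Y, a usual partner of SREBPs, and the GC box GGGCGG, which binds SP1. TCACNCCAC was found in 1 of 30 member windows, that of SREBF2, and in 1.06% of the 11671 windows of genes tested. CACGTG was found in 5 of 30 (LSS, SC5D, ELOVL5, SCAP and INSIG1), beside 9.91% of those windows.

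The CCAAT box occurred in 12 of 14 sterol windows (85.7%), 5 of 11 fatty acid windows (45.5%) and 2 of 5 regulator windows, against 35.7% of all 27305 windows and 36.1% of those of genes tested. The sterol windows without it were those of PMVK and IDI1, and NSDHL and MVK held 5 matches each. The GC box was in 13 of 14, 8 of 11 and 5 of 5 windows, against 67.8% for genes tested. A match is a string of letters and was not tested as a site. The windows printed here are the sterol regulatory element of SREBF2 and, for members with a CCAAT box that were called with an absolute log2 fold change above 0.5, the match nearest the start site. Each is 30 bases in the direction of the gene on GRCh38.p14, with the motif in capitals (ATTGG where CCAAT lies on the opposite strand). Distances are counted from the RefSeq start site, which can differ from the GENCODE gene bounds given for some genes in this text. The MVD window thus begins inside its GENCODE bounds (which end at 88663161), and the SC5D window lies inside its own (which begin at 121292681).
SREBF2, sterol regulatory element 133 bases upstream, chr22:41832962-41832991, plus strand: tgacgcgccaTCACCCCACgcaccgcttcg
TM7SF2, CCAAT box 74 bases upstream, chr11:65111786-65111815, plus strand: ccccgagcgccgATTGGctggtgtgctggg
MVD, CCAAT box 85 bases upstream, chr16:88663159-88663188, minus strand: ggctcgcacgggCCAATcctgtggtagcgc
MSMO1, CCAAT box 34 bases upstream, chr4:165327623-165327652, plus strand: agctctcgcaggCCAATaacgacaggacgg
SC5D, CCAAT box 56 bases upstream, chr11:121292703-121292732, plus strand: cgccggtcgctgATTGGctggccgctccag
SCD, CCAAT box 186 bases upstream, chr10:100347035-100347064, plus strand: aattcccttcggCCAATgacgagccggagt
SREBF2, printed for the other motif, was not called. Of the genes printed for the CCAAT box, 4 rose and SCD fell, but they were picked by their change and do not show how the box relates to direction. Of all members called lower, ACLY, SCD and INSIG1 held a match and ACACA, ME1, SREBF1 and SCAP did not. Of those called higher with a window, IDI1, ACACB, FADS2 and INSIG2 held none and the others did. Of those not called with a window, HMGCS1, MVK, NSDHL, HSD17B7, ELOVL1, ELOVL5 and SREBF2 held a match and PMVK, ELOVL6 and FADS1 did not. Matches were thus also common among members that were not called.

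Among the regulators, SREBF1 (chromosome 17, 17810399 to 17837002, minus strand), which encodes the SREBP best known for fatty acid genes, was at 149 and 150 CPM in shCon and 70.9 and 71.6 CPM in shUBXN1. The replicates lay close together and the groups far apart. SREBF1 fell to 47.8% of control, a log2 fold change of -1.07 (standard error 0.0718, edgeR adjusted p = 2.50e-08). Antisense exons of RAI1 cover 6.75% of its exon bases, and RAI1 itself had a log2 fold change of -0.35.

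SREBF2, the SREBP best known for sterol genes and the carrier of the element printed above, was at 121 and 117 CPM in shCon and 115 and 123 CPM in shUBXN1. The groups overlapped, and the log2 fold change was -0.0050 (standard error 0.0730). After removal of GC trends it was -0.21 and passed the threshold (edgeR adjusted p = 0.0395), so the flat level of SREBF2 depended on this setting. The ratio of SREBF1 to SREBF2 on the TPM scale was 1.51 and 1.57 in shCon and 0.758 and 0.72 in shUBXN1, so SREBF1 was the more abundant transcript in control cells and SREBF2 after knockdown.

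SCAP, the escort that carries SREBPs to the Golgi, was at 49.6 and 52.5 CPM in shCon and 33.4 and 35.3 CPM in shUBXN1. Both knockdown libraries were below both controls, and SCAP fell to 67.3% of control (log2 fold change -0.57, standard error 0.0819, edgeR adjusted p = 3.84e-05). INSIG1, which retains SCAP and is itself an SREBP target, was at 60.9 and 60.9 CPM in shCon and 44.2 and 53.3 CPM in shUBXN1. INSIG1 fell by 0.32 on the log2 scale (standard error 0.0902, edgeR adjusted p = 0.00729), and the knockdown replicates lay further from each other than the higher of them lay from the controls.

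INSIG2, the other retention protein, was at 23.5 and 22.0 CPM in shCon and 29.8 and 28.1 CPM in shUBXN1. INSIG2 rose by a log2 fold change of 0.34 (standard error 0.0950, edgeR adjusted p = 0.00663), a call that was lost without the second shCon library (log2 fold change 0.28, edgeR adjusted p = 0.12, range over alternatives 0.28 to 0.43). On the TPM scale the ratio of INSIG1 to INSIG2 was 3.17 and 3.38 in shCon and 1.82 and 2.32 in shUBXN1.

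**Figure D3:**
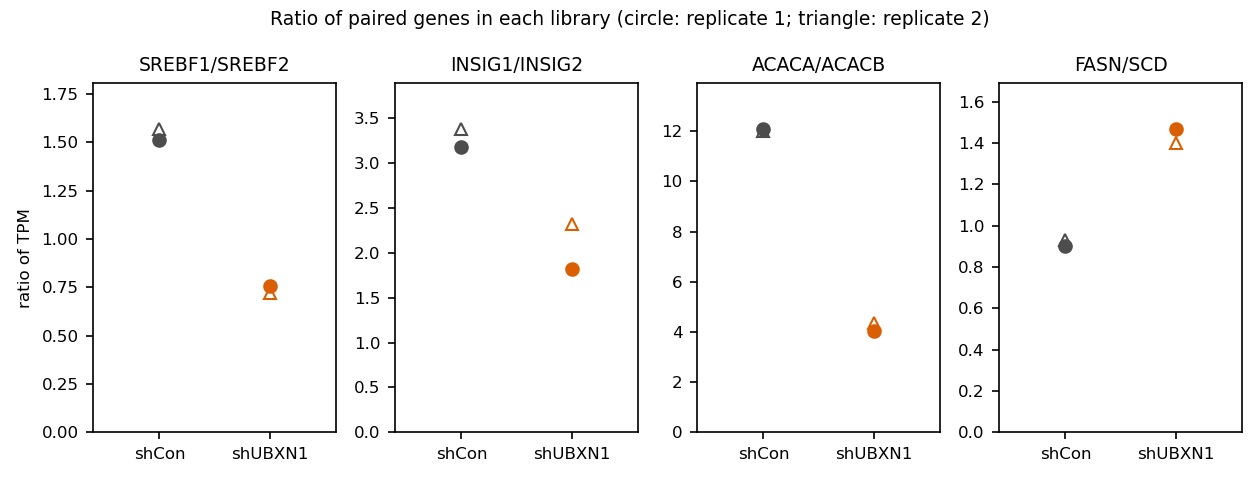
Ratio of TPM between paired genes in each library, with filled circles for replicate 1 and open triangles for replicate 2, on linear axes that start at 0. The SREBF1 to SREBF2 ratio passes from 1.51 and 1.57 in shCon to 0.758 and 0.72 in shUBXN1, and the ACACA to ACACB ratio from 12.1 and 12.0 to 4.02 and 4.34.

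In the sterol branch the rises lay mainly after mevalonate. Of the genes that lead to mevalonate and its phosphates, ACAT2 (cytosolic thiolase), HMGCS1 (HMG-CoA synthase), MVK and PMVK (the mevalonate kinases) had log2 fold changes of 0.13, -0.10, 0.059 and -0.026, none past the threshold. ACAT2 was called higher under total count scaling (0.21, edgeR adjusted p = 0.0334), and its log2 fold change was 0.25 without the first shUBXN1 library. Antisense exons of TCP1 cover 17.2% of those of ACAT2, and TCP1 was at -0.53. MVD, the decarboxylase that follows them (chromosome 16, 88651935 to 88663161, minus strand), was at 26.8 and 30.4 CPM in shCon and 54.4 and 57.8 CPM in shUBXN1. MVD rose 1.96-fold (log2 fold change 0.97, standard error 0.0881, edgeR adjusted p = 4.38e-07), the largest rise of the branch after that of TM7SF2.

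IDI1, the isomerase that makes the starter unit of isoprenoids, was at 79.2 and 69.7 CPM in shCon and 108 and 121 CPM in shUBXN1. The groups stood apart, with a log2 fold change of 0.62 (standard error 0.0851, edgeR adjusted p = 2.39e-05). FDPS, which joins these units into farnesyl diphosphate and was the most abundant member per length, was at 276 and 289 CPM in shCon and 366 and 377 CPM in shUBXN1, a log2 fold change of 0.39 (standard error 0.0744, edgeR adjusted p = 0.000418). Antisense exons of RUSC1-AS1 cover 18.6% of the exon bases of FDPS, and held 235 to 546 counts in a library (log2 fold change 0.81). The call for FDPS was lost after removal of GC trends (log2 fold change 0.21, edgeR adjusted p = 0.0547, range over alternatives 0.21 to 0.48).

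At the commitment to sterols, FDFT1 (squalene synthase) was at 254 and 256 CPM in shCon and 249 and 268 CPM in shUBXN1, and the groups overlapped. SQLE, the epoxidase that follows it, was at 177 and 176 CPM in shCon and 197 and 230 CPM in shUBXN1 and rose by a log2 fold change of 0.27 (edgeR adjusted p = 0.0109), a call that was lost without the second shCon library (edgeR adjusted p = 0.169, log2 fold changes of 0.15 to 0.38 over alternatives). LSS, which closes the ring of lanosterol, was tightly measured at 82.0 and 81.8 CPM in shCon and 110 and 111 CPM in shUBXN1, with a log2 fold change of 0.43 (edgeR adjusted p = 0.000145).

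TM7SF2, a sterol reductase that acts soon after lanosterol (chromosome 11, 65111845 to 65116384, plus strand), was at 4.61 and 4.26 CPM in shCon and 19.5 and 20.2 CPM in shUBXN1. This was the largest difference of all 34 genes, 4.47-fold (log2 fold change 2.16, standard error 0.137, edgeR adjusted p = 1.38e-08), and it lay between 1.77 and 2.24 over the alternatives. VPS51 shares 0.528% of its exon bases on the same strand and had a log2 fold change of 0.13.

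The enzymes that strip and rearrange the ring come next in the pathway. MSMO1, which removes methyl groups from the ring, was at 63.2 and 65.1 CPM in shCon and 97.0 and 114 CPM in shUBXN1 (log2 fold change 0.72, standard error 0.0857, edgeR adjusted p = 6.36e-06). Its partners in the same step did not pass, with NSDHL at a log2 fold change of 0.19 (edgeR adjusted p = 0.0677) and HSD17B7 at 0.023. NSDHL passed under 5 of the 12 alternatives, with values of 0.087 to 0.27 over all of them, so its place among the genes that did not pass is close to the threshold.

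EBP, the sterol isomerase, was at 86.2 and 81.4 CPM in shCon and 109 and 122 CPM in shUBXN1, a log2 fold change of 0.46 (edgeR adjusted p = 0.00018). EBP shares 36.4% of its exon bases on the same strand with ENSG00000286268, which held 121 and 315 counts in shCon and 221 and 293 in shUBXN1, so its value is uncertain. SC5D, the sterol desaturase, was at 61.7 and 61.8 CPM in shCon and 83.6 and 101 CPM in shUBXN1 (log2 fold change 0.58, standard error 0.0894, edgeR adjusted p = 7.27e-05). DHCR7, the reductase of the last step to cholesterol, was at 150 and 154 CPM in shCon and 188 and 225 CPM in shUBXN1, with a log2 fold change of 0.45 (edgeR adjusted p = 0.00054). The call for DHCR7 was lost after removal of GC trends (log2 fold change 0.22, edgeR adjusted p = 0.0701, range over alternatives 0.22 to 0.57).

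Within the knockdown group the sterol genes differed between replicates in a shared direction. Of the 17 genes, 16 had a higher CPM in the second shUBXN1 library than in the first, with a median log2 difference of 0.165, while in shCon the count was 9 of 17 and the median 0.0016. The same direction was found in 10 of 12 fatty acid genes (median 0.143) and in 62.1% of the 11557 genes with a mean of at least 5 CPM (median 0.0485). The spread in shUBXN1 was thus larger than in shCon, and leaving out the second shUBXN1 library lowered the sterol median from 0.395 to 0.296 with 9 to 12 rises over the 4 omissions.

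**Figure D4:**
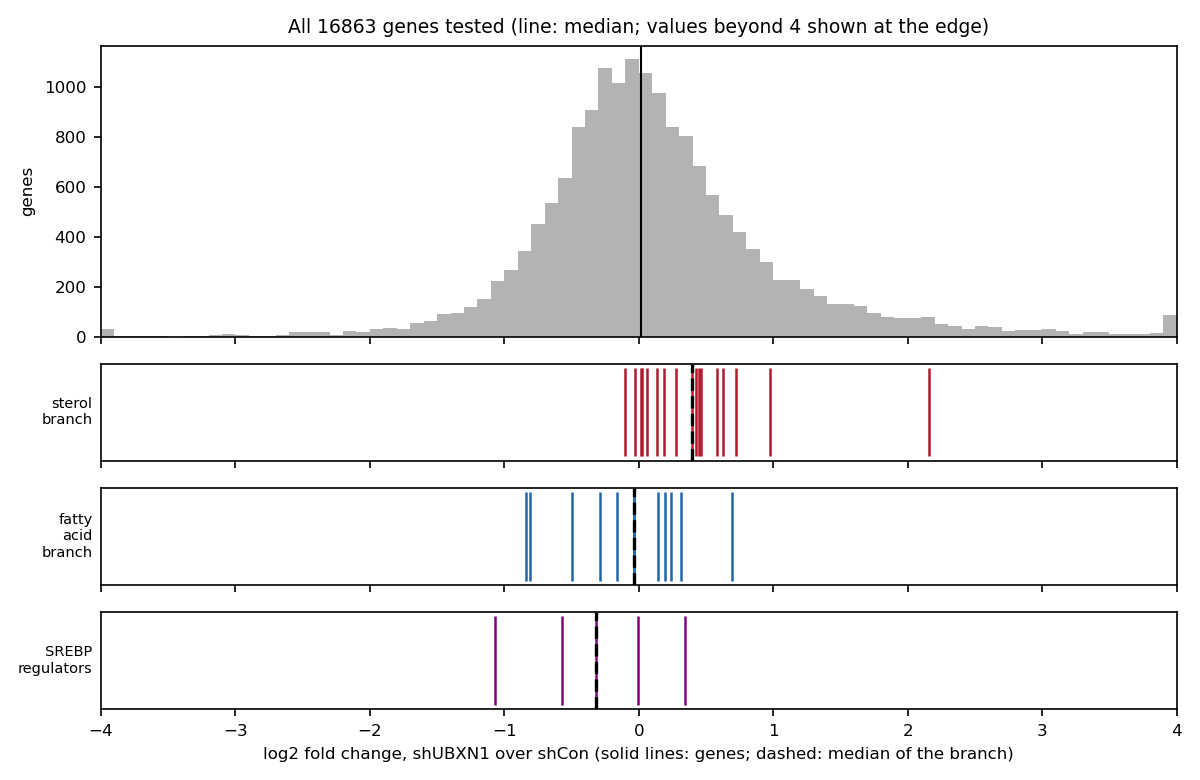
Histogram of the log2 fold change of all 16863 genes tested, above the 17 sterol, 12 fatty acid and 5 regulator genes drawn as vertical lines on the same axis, with branch medians dashed. The sterol median of 0.395 lies to the right of the median of all genes at 0.016, the fatty acid median of -0.035 lies beside it and the regulator median of -0.32 lies to its left.

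The fatty acid branch held large changes in opposite directions at its first committed step. ACACA, the cytosolic acetyl-CoA carboxylase that supplies malonyl-CoA for synthesis (chromosome 17, 37084992 to 37406836, minus strand), was at 231 and 238 CPM in shCon and 128 and 135 CPM in shUBXN1. ACACA fell to 56.0% of control (log2 fold change -0.84, standard error 0.0733, edgeR adjusted p = 3.16e-07). ACACB, the isoform at the mitochondrial surface that is known for restraining fatty acid oxidation, was at 17.6 and 18.3 CPM in shCon and 29.4 and 28.7 CPM in shUBXN1. ACACB rose 1.62-fold (log2 fold change 0.69, standard error 0.0969, edgeR adjusted p = 3.04e-05). On the TPM scale, ACACA exceeded ACACB 12.1- and 12.0-fold in shCon and 4.02- and 4.34-fold in shUBXN1, so ACACA remained the major form in each library.

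The genes that feed acetyl-CoA and NADPH into synthesis were split. ACLY, which cleaves citrate to acetyl-CoA, was at 438 and 434 CPM in shCon and 339 and 375 CPM in shUBXN1, a log2 fold change of -0.29 (edgeR adjusted p = 0.0062). Its call was lost without the first (edgeR adjusted p = 0.0512) or the second (edgeR adjusted p = 0.112) shCon library, although the value stayed between -0.42 and -0.21 over the alternatives. ME1, the cytosolic malic enzyme that yields NADPH, was at 161 and 170 CPM in shCon and 105 and 129 CPM in shUBXN1 (log2 fold change -0.50, standard error 0.0916, edgeR adjusted p = 0.000339).

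ACSS2, which makes acetyl-CoA from acetate, was at 53.7 and 49.0 CPM in shCon and 61.5 and 59.8 CPM in shUBXN1. The log2 fold change of 0.24 passed (edgeR adjusted p = 0.018), but it was 0.16 without the second shCon library (edgeR adjusted p = 0.365) and 0.092 after removal of GC trends (edgeR adjusted p = 0.377), within a range of 0.092 to 0.33. FASN, the synthase itself and the member with the most counts, was at 1134 and 1134 CPM in shCon and 974 and 1056 CPM in shUBXN1. Both knockdown libraries lay below both controls, but the log2 fold change of -0.16 did not pass (standard error 0.0835, edgeR adjusted p = 0.119). FASN passed under 3 alternatives, DESeq2, omission of the second shUBXN1 library and removal of GC trends, and the last of these gave -0.58.

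SCD, the desaturase that makes monounsaturated chains (chromosome 10, 100347233 to 100364826, plus strand), was at 778 and 756 CPM in shCon and 411 and 467 CPM in shUBXN1. SCD fell to 57.2% of control (log2 fold change -0.81, standard error 0.0848, edgeR adjusted p = 1.91e-06), and the ratio of FASN to SCD on the TPM scale passed from 0.903 and 0.93 in shCon to 1.47 and 1.4 in shUBXN1. Of the elongases, ELOVL5 was at 159 and 155 CPM in shCon and 168 and 193 CPM in shUBXN1 with a log2 fold change of 0.20 (edgeR adjusted p = 0.0501), just outside the threshold, and it passed under 8 of the 12 alternatives at values of 0.078 to 0.29 over all of them. ELOVL6 and ELOVL1 had log2 fold changes of 0.14 and -0.033 and did not pass. ELOVL6 was called higher under total count scaling (0.23, edgeR adjusted p = 0.017), and its log2 fold change was 0.21 without the first shUBXN1 library.

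FADS1 and FADS2, neighbouring desaturases of polyunsaturated chains, differed. FADS2 was at 291 and 306 CPM in shCon and 349 and 393 CPM in shUBXN1 and rose by a log2 fold change of 0.32 (edgeR adjusted p = 0.00417), while FADS1 overlapped at 297 and 293 against 280 and 296 CPM. FADS2 lost its call without the first shCon library (edgeR adjusted p = 0.0558), without the second (edgeR adjusted p = 0.0896) and after removal of GC trends (log2 fold change 0.075, edgeR adjusted p = 0.524), with a range of 0.075 to 0.40 over alternatives. These genes share 4.8% and 4.6% of their exon bases in opposite orientation, so a small part of their reads cannot be assigned without strand.

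Other genes of the pathway were taken from 6 lists written by hand. Of 10 genes for SREBP processing and INSIG turnover, 0 rose, 5 fell and 5 did not pass. The falls were those of FAF2, which brings VCP to ubiquitylated proteins of the endoplasmic reticulum (84.2 and 77.9 CPM in shCon, 42.5 and 46.5 CPM in shUBXN1, log2 fold change -0.86, edgeR adjusted p = 5.99e-07), of RNF145, a ubiquitin ligase of the endoplasmic reticulum (-0.65), of MBTPS1, the Golgi protease that makes the first cut in SREBPs (-0.55), and of ERLIN1 and ERLIN2 (-0.38 and -0.19). MBTPS2, the protease of the second cut, had a log2 fold change of 0.074 and did not pass.

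Of 10 genes on isoprenoid side branches, 2 rose and 4 fell. DHDDS (dolichol synthesis) and GGPS1 (geranylgeranyl diphosphate synthase) rose by 0.39 and 0.35, the latter call being lost without the first shCon library (0.29, edgeR adjusted p = 0.0882) or the second shUBXN1 library (0.20, edgeR adjusted p = 0.123), whereas PDSS2 and PDSS1, which make the tail of coenzyme Q, had log2 fold changes of -0.88 and -0.67. Among 12 genes for sterol esterification, transfer and export, STARD4, a sterol carrier and SREBP target, was the 1 that rose (0.27), a call that was lost by DESeq2 (adjusted p = 0.12) and, in edgeR, without either shCon library (adjusted p = 0.141 and 0.156) or the second shUBXN1 library (adjusted p = 0.18). In the same list 6 fell, among them CYP27A1, which oxidizes the sterol side chain (-1.70, edgeR adjusted p = 1.40e-09), and NR1H3, the liver X receptor alpha (-0.77).

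Of 16 genes for further elongation and for mitochondrial fatty acid synthesis, 12 were tested, 3 rose and 5 fell. FADS3, a relative of the desaturases above, was at 15.1 and 15.2 CPM in shCon and 50.8 and 48.5 CPM in shUBXN1 (log2 fold change 1.71, edgeR adjusted p = 2.49e-09), and the mitochondrial reductase gene CBR4 rose by 1.19. HACD2, a dehydratase of elongation, and MECR, of mitochondrial synthesis, had log2 fold changes of -0.65 and -0.59. ELOVL2, ELOVL3, ELOVL4 and SCD5 were too low to test.

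Of 15 genes for supply and control of lipogenesis, 14 were tested, 1 rose and 9 fell. The citrate carrier gene SLC25A1 rose by 0.28 but was at -0.15 after removal of GC trends, and its call was lost without the first shCon library (edgeR adjusted p = 0.0943), the second (edgeR adjusted p = 0.0579) or the second shUBXN1 library (edgeR adjusted p = 0.054). MLXIP, a glucose-sensing transcription factor, was at -0.63. IDH2 fell (-0.48), while IDH1 (-0.021) and PGD (-0.13) did not pass.

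Of 18 genes that activate fatty acids and build glycerolipids, 6 rose and 9 fell. PLIN2, the coat protein of lipid droplets, rose by 0.70 from 82.8 and 88.3 CPM to 139.5 and 139 CPM, and LPIN3 by 0.52. The acyl-CoA synthetase gene ACSL1 was at 68.2 and 73.6 CPM in shCon and 29.6 and 30.5 CPM in shUBXN1 (log2 fold change -1.24, edgeR adjusted p = 1.84e-08), and the acyltransferase gene AGPAT1 was at -1.05. Set beside the background of 28.0% higher and 28.2% lower over all genes tested, or 28.7% and 36.5% among those with at least 5 CPM, the share of rises was above it for glycerolipid synthesis, at 6 of 18 (3 of 18 after removal of GC trends), and below it in the other 5 lists. The share of falls was above both backgrounds in all 6 lists, at 5 of 10, 4 of 10, 6 of 12, 5 of 12, 9 of 14 and 9 of 18 genes tested in the order given here. No list was tested as a set.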

How the data were processed

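Libraries of mRNA from MHCC97H cells were prepared and sequenced by the authors in paired ends. The paper's methods give mapping to GRCh38 with Hisat2, TPM and limma, whereas the submitters' processing notes name GRCh37, HISAT2 2.0.4 and StringTie 1.3.0, so the build is uncertain. The counting tool, annotation release and use of strand are not given in the sources used here. The authors deposited expected counts for each gene, without normalization, and gene lengths. Groups were taken from the sample titles.

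Expected counts were rounded to whole numbers, filtered with filterByExpr, scaled by TMM and compared in edgeR 4.0.16 (R 4.3.3) by the quasi-likelihood fit and F test, without a block. Standard errors were derived from the log2 fold change and the square root of F. TPM was computed from unrounded counts and deposited lengths. Symbols were matched for 61369 of 61541 identifiers. Positions and exon overlaps come from GENCODE release 44 on GRCh38 and promoters from RefSeq on GRCh38.p14. Columns of other samples numbered 0.

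The members and lists were chosen with earlier results of these data known. Values per library are given for members called with an absolute log2 fold change above 0.5, the regulators and the most abundant member of each branch. Further members and list genes shown with values were chosen after their values were seen. Other lists are named by up to 2 called rises and 2 called falls of the largest size with a mean above 1 CPM. Results for some list genes are not reported here. The fit was tested on simulated data. Alternatives were DESeq2 1.42.0, limma 3.58.1 on log2(TPM + 1), total count scaling, 2 other filters, a replicate block, unrounded counts, removal of GC trends and omission of each library. The background of genes with a mean of at least 5 CPM was chosen after seeing the data.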

Additional observations from a re-analysis of the deposited data

How the results depend on the processing

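With 2 libraries a group and 2 residual degrees of freedom, differences near the threshold are not settled at this depth of replication. Over the 12 alternatives the sterol branch had 8 to 12 rises, the fatty acid branch 1 to 5 rises and 3 to 5 falls, and the regulators 3 to 4 falls. Between 26 and 34 of the 34 members kept their side of the threshold, the fewest after removal of GC trends, and no called member changed sign. The sterol median lay between 0.207 and 0.48. The fatty acid median changed sign under total count scaling (0.0492), limma (0.023) and omission of the first shUBXN1 library (0.0238). The causes of the changes below were not tested.

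Under total count scaling the fatty acid branch had 5 rises, SREBP processing 3 rises and elongation 3 falls, and at a fold change of 2 there were 2 members higher and 0 lower. With at least 10 counts in every library, 1321 genes were higher at a fold change of 2, as were 2 members, and SREBP processing had 2 rises. After removal of GC trends the sterol branch had 1 fall (PMVK), SREBP processing 1 rise, lipogenic supply 0 rises and glycerolipid synthesis 3 rises, and SLC25A1 reversed to -0.152. DESeq2 gave 0 rises for sterol esterification and 3 falls for elongation. By limma, 1028 genes passed the fold change of 2 upward and 524 downward, 2 and 0 of them members, and SREBP processing had 2 rises.

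Leaving out 1 library at a time gave 0 to 1 falls and 9 to 12 rises in the sterol branch, 1 to 5 rises in the fatty acid branch, 0 to 1 rises among the regulators, 0 to 2 rises in SREBP processing, 1 to 2 in isoprenoid side branches, 0 to 1 in sterol esterification with 3 to 7 falls, 3 to 5 falls in elongation, 0 to 1 rises in lipogenic supply, 3 to 7 in glycerolipid synthesis and 1 to 2 members higher at a fold change of 2. 

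The labels do not say whether libraries with the same replicate number shared a batch. The deviations of same-numbered libraries correlated at 0.0393 over genes, which with 2 libraries a group cannot settle the question. With the replicate block, 5000 genes were higher and 5023 lower, the sterol branch had 11 rises, the fatty acid branch 4 rises and SREBP processing 1 rise. NSDHL (0.19) and ELOVL5 (0.195) gained a call under the block.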
